A study of Rattus norvegicus with 10 samples.

Results

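Macrophages and monocytes of the arterial wall were followed here through 10 genes that mark these cells: Lyz2, Cd68, Cd163, Cd14, Csf1r, Tyrobp, Fcer1g, Aif1, Laptm5 and Cybb. They were read from every probe set annotated with one of these symbols, which gave 10 probe sets for 9 genes, among 15866 probe sets and 10411 named genes in all. Aif1 had 2 probe sets and the others 1 each. No probe set was annotated with the scavenger receptor gene Cd163, so it had no signal values and only its promoter was read. The samples were abdominal aortae of untreated inbred rats, 5 arrays of the Brown Norway strain (BN) and 5 of the LOU strain, all labelled as 5 weeks old. The growth notes speak of rats kept to at most 18 weeks, and the extraction notes name both the thoracic and the abdominal aorta. Each array gave total RNA of whole vessel segments, labelled as cRNA with biotin and hybridised to an Affymetrix expression array.

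Macrophages are phagocytes that reside in the adventitia and intima of arteries and are joined there by monocytes from the blood. Their survival depends on the receptor encoded by Csf1r, and the transcription factor PU.1 drives many of their genes. In the artery they take up lipids and dying cells, produce superoxide through the phagocyte oxidase and sense bacterial products. In whole-vessel RNA, fewer macrophages and less RNA per macrophage cannot be told apart.

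The gene starts of 7 of the 10 genes were found in RefSeq's promoter table (GRCr8 build). The 250 bases before the start are given for Lyz2, Cd68 and Csf1r, whose signals shared 1 high array, and for Cybb, whose signal was highest elsewhere. Capitals mark GAGGAA, the core letters of a PU.1 site, or TTCCTC, the same letters on the opposite strand, and the 2 forms cannot overlap. The windows are chr7:54798012-54798261 on the minus strand for Lyz2, chr10:54882442-54882691 on the minus strand for Cd68, chr18:56834129-56834378 on the plus strand for Csf1r and chrX:16065066-16065315 on the minus strand for Cybb.
Lyz2: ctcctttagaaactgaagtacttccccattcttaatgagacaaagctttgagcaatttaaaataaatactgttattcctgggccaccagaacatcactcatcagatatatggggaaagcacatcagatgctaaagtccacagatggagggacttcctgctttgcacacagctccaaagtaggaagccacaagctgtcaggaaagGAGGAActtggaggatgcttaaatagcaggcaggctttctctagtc
Cd68: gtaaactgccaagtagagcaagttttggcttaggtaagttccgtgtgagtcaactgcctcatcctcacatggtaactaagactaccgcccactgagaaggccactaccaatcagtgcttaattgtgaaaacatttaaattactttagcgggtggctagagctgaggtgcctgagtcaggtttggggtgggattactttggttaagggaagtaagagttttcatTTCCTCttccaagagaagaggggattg
Csf1r: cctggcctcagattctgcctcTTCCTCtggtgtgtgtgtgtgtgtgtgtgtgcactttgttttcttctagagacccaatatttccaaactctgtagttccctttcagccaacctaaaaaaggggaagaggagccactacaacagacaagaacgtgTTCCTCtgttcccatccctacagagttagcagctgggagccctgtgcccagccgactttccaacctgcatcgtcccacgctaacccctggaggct
Cybb: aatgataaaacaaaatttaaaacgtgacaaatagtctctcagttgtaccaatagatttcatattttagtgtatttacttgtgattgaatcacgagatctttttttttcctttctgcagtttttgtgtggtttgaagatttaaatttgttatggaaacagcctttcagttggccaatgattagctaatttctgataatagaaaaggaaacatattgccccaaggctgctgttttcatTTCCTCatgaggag

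The motif stood in 6 of the 7 windows of this length, Cd163 being the exception, and in 23.3% of 33469 RefSeq promoter windows. Cd14 and Csf1r held it at 2 places each and Lyz2, Cd68, Laptm5 and Cybb at 1. Its first base nearest to the start lay at −14 in Cybb, −27 in Cd68, −46 in Lyz2, −63 in Laptm5, −95 in Csf1r and −105 in Cd14. A match describes these letters and does not show that the factor binds there.

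Background was set on each array from probes for bacterial transcripts, and 69.7% to 81.9% of the 15866 probe sets exceeded it. All 6 smooth muscle markers measured (Acta2, Myh11, Tagln, Cnn1, Smtn and Des) and all 4 endothelial markers (Pecam1, Vwf, Kdr and Tie1) did so on every array. Of the macrophage and monocyte probe sets, 9 of 10 were above background on all 10 arrays, and 1 Aif1 probe set was above it on 1 BN and 2 LOU arrays. LOU array 1 stood apart in these genes, as described below, so the strain difference of each of the 10 probe sets is given with all arrays and without that array. Whether any 2 arrays share a rat is not stated in the labels, so p-values measure only the spread between these arrays.

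For no macrophage or monocyte gene did the strain difference pass the test. With limma's test over all probe sets and Benjamini-Hochberg adjustment, 0 of the 10 probe sets passed an adjusted p of 0.05, where 0.788% of all 15866 did. At an unadjusted p of 0.05 the count was also 0, against 13.3% of all probe sets. The 5 BN signals overlapped the 5 LOU signals in all 10, while 4.18% of all probe sets showed no overlap. Differences of BN minus LOU were negative in 8 of the 10, with a median of −0.21 on the log2 scale, where 53.5% of all probe sets were negative with a median of −0.03. Without LOU array 1 the count of negative differences was 5 of 10 and the median −0.02, against −0.03 over all probe sets. The smallest adjusted p was 0.427 with all arrays.

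**Figure D1:**
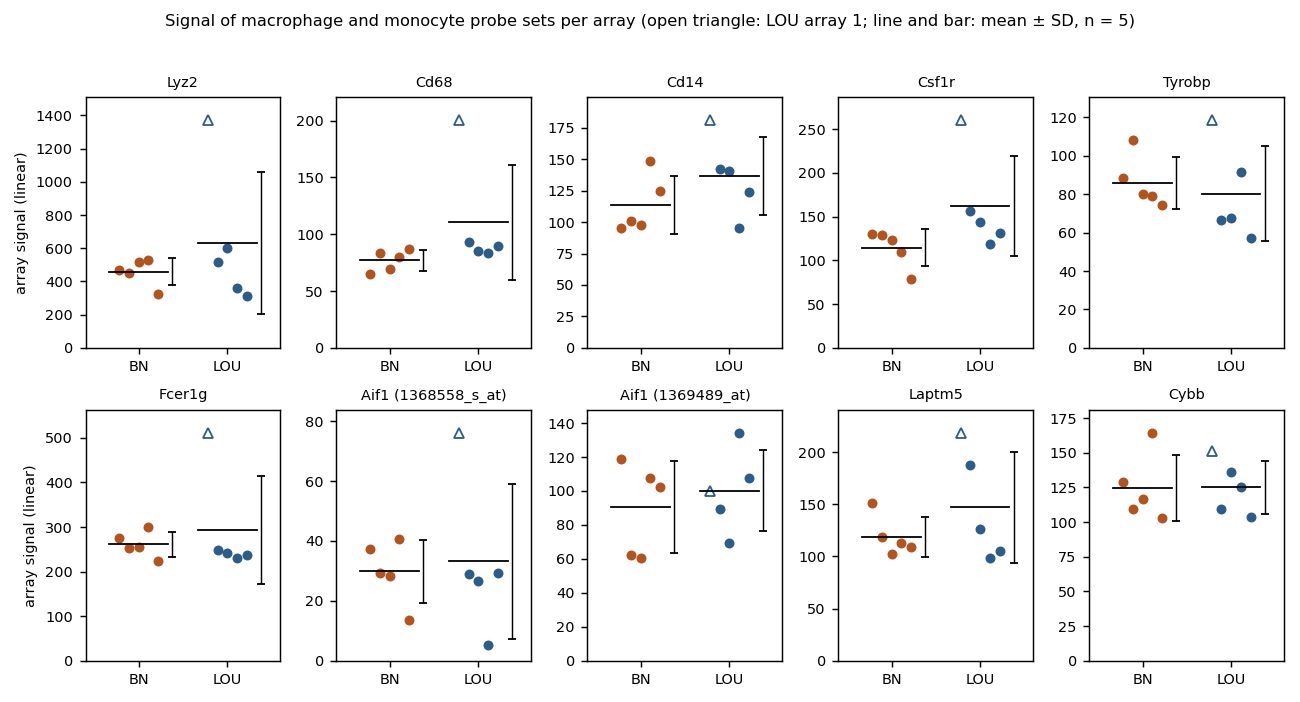
Linear array signal (y axis, from 0) of each of the 10 macrophage and monocyte probe sets on 5 BN arrays (left in each panel) and 5 LOU arrays (right), with the mean as a line and the SD as a bar. The open triangle, LOU array 1, is the highest of all 10 arrays in 8 panels, and BN and LOU points overlap in every panel.

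Csf1r, the receptor for the growth factors CSF1 and IL-34 on which macrophages depend, gave signals of 130.4, 128.4, 123.7, 109.8 and 79.0 on BN arrays 1 to 5, against 260.1, 156.4, 144.3, 118.6 and 130.9 on LOU arrays 1 to 5. LOU arrays 1, 2 and 3 lay above every BN array, and LOU array 4 lay inside the BN range. LOU array 5, at 130.9, was nearly level with the highest BN array, at 130.4. BN averaged 114 ± 21.3 and LOU 162 ± 56.6 (SD, n = 5 each), a log2 difference of −0.47 with a 95% confidence interval of −0.98 to 0.04 (limma adjusted p = 0.427). This was the largest difference in size among the 10 probe sets with all arrays, and it shrank to −0.28 (interval −0.69 to 0.12) without LOU array 1.

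Tyrobp and Fcer1g encode small membrane adaptors that carry an activation motif and pass signals from receptors with no signalling tail of their own, Tyrobp for receptors such as TREM2 and Fcer1g for Fc receptors. Tyrobp signals were 88.4, 108.5, 79.9, 79.0 and 74.6 on BN arrays 1 to 5, against 118.6, 66.8, 67.6, 91.5 and 57.2 on the LOU arrays in the same order. LOU held both the highest and the lowest value, and the strains overlapped throughout. BN averaged 86.1 ± 13.5 and LOU 80.3 ± 24.8 (SD, n = 5 each), a log2 difference of 0.14 (95% interval −0.33 to 0.60, limma adjusted p = 0.817). Tyrobp was the 1 gene among those above background on all arrays with a positive difference, which became 0.29 (interval −0.10 to 0.68) without LOU array 1.

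For Fcer1g the signals were 276.4, 253.8, 255.2, 299.6 and 224.2 in BN and 510.8, 249.0, 242.6, 230.6 and 236.5 in LOU, arrays 1 to 5. LOU arrays 2 to 5 kept within a narrow band inside the BN range, and LOU array 1 gave 2.13 times their median. Means of 262 ± 28.1 in BN and 294 ± 121 in LOU (n = 5) gave a log2 difference of −0.10 (95% interval −0.59 to 0.40, limma adjusted p = 0.885). Without LOU array 1 the LOU mean was 239.7 ± 7.92 and the difference 0.12 (interval −0.15 to 0.39), so its sign rested on that array. The same adaptor serves the IgE receptor of mast cells, whose markers are given below.

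Cd14 is the co-receptor that hands bacterial lipopolysaccharide to Toll-like receptor TLR4. It read 95.0, 100.6, 97.9, 148.9 and 124.9 on BN arrays 1 to 5, and 181.0, 142.2, 140.3, 95.2 and 124.2 on LOU arrays 1 to 5. BN arrays 4 and 5 reached the LOU values, and LOU array 4 fell among the low BN arrays. The mean was 113 ± 23.1 in BN and 137 ± 31.2 in LOU (SD, n = 5), with a log2 difference of −0.26 (95% interval −0.69 to 0.18, limma adjusted p = 0.612), and −0.15 (interval −0.58 to 0.28) without LOU array 1.

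Cd68, a heavily glycosylated protein of macrophage lysosomes that binds oxidised lipoproteins, had the second largest difference. Its signals on BN arrays 1 to 5 were 65.4, 83.8, 69.4, 80.3 and 86.9, and those on LOU arrays 1 to 5 were 200.3, 93.5, 84.8, 83.8 and 89.7. The other 4 LOU arrays spanned a few signal units around the upper BN values, and LOU array 1 stood far above all 9 other arrays. BN averaged 77.2 ± 9.32 and LOU 110.4 ± 50.4 (SD, n = 5), a log2 difference of −0.43 (95% interval −0.97 to 0.10, limma adjusted p = 0.483). Without LOU array 1 the LOU mean was 88.0 ± 4.51 and the difference −0.20 (interval −0.49 to 0.09).

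Lyz2, the lysozyme of phagocytes that cleaves bacterial cell walls, had the widest interval among the probe sets above background on all arrays. BN arrays 1 to 5 read 470.7, 452.6, 516.7, 530.8 and 321.6, and LOU arrays 1 to 5 read 1371.1, 516.7, 600.4, 359.1 and 312.4. Apart from LOU array 1 the strains covered nearly the same range. The mean was 458 ± 83.0 in BN and 632 ± 429 in LOU (SD, n = 5), and the log2 difference was −0.27 (95% interval −1.08 to 0.54, limma adjusted p = 0.793). Its sign turned without LOU array 1, to 0.06 (interval −0.46 to 0.59).

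Laptm5 encodes a lysosomal membrane protein of blood-derived cells, B and T cells included. Signals on BN arrays 1 to 5 were 150.8, 118.6, 102.2, 112.8 and 108.6, against 218.2, 187.3, 126.1, 98.9 and 105.0 on LOU arrays 1 to 5. LOU arrays 1 and 2 lay above every BN array and LOU array 4 below every one. The log2 difference was −0.25 (95% interval −0.78 to 0.28, limma adjusted p = 0.686), and −0.09 without LOU array 1.

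Cybb encodes the catalytic subunit of the phagocyte NADPH oxidase, and Aif1 the calcium-binding protein IBA1 of activated macrophages. Cybb read 129.1, 109.6, 116.8, 164.2 and 103.3 in BN, against 151.0, 109.4, 136.1, 125.2 and 103.8 in LOU, arrays 1 to 5, and its highest value was on BN array 4. The strain means differed by −0.01 (log2, 95% interval −0.38 to 0.35, limma adjusted p = 0.984), the narrowest interval of the 10, and the sign turned without LOU array 1, to 0.06 (interval −0.32 to 0.44), and with median centring and quantile normalization of the arrays. The brighter Aif1 probe set gave 119.1, 62.1, 60.8, 107.9 and 102.1 in BN and 100.2, 89.4, 69.3, 134.1 and 107.9 in LOU. BN arrays 2 and 3 and LOU array 3 were its low arrays, and the log2 difference was −0.17 (interval −0.72 to 0.38, limma adjusted p = 0.807), and −0.16 without LOU array 1. The dim Aif1 probe set ran from 13.7 to 40.6 in BN and from 5.3 to 76.0 in LOU, and its difference of 0.18 (interval −1.17 to 1.54, limma adjusted p = 0.927) had the opposite sign and became 0.59 (interval −0.65 to 1.83) without LOU array 1. Most of those dim readings lay below background, and the mean of both Aif1 probe sets differed by 0.01.

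**Figure D2:**
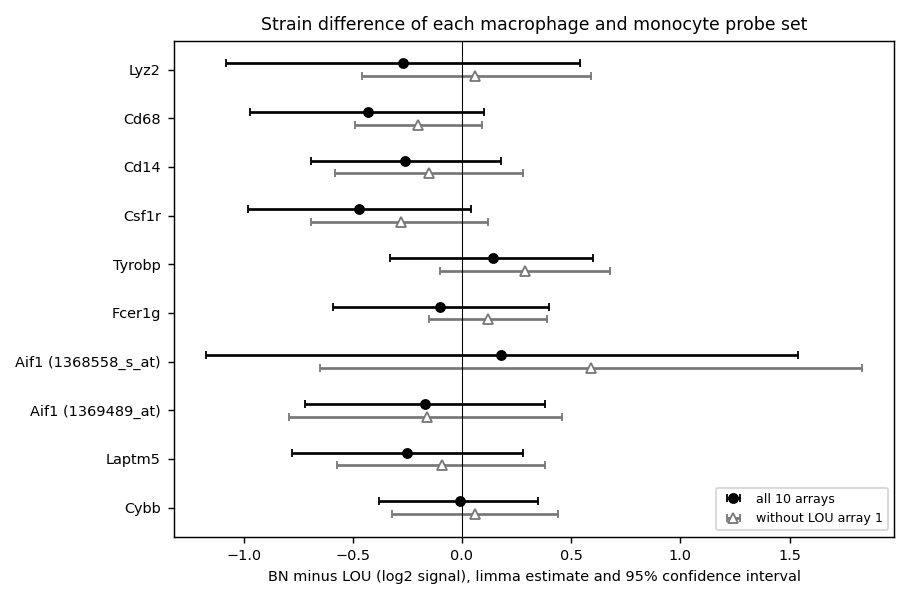
Log2 difference of BN minus LOU (x axis) for each probe set (rows), with limma's 95% confidence interval, from all 10 arrays (filled circles) and without LOU array 1 (open triangles). Every interval spans 0, and all 10 estimates move to the right without LOU array 1, from −0.43 to −0.20 for Cd68 and from −0.27 to 0.06 for Lyz2.

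The largest contrast in these genes lay between LOU array 1 and the other 4 LOU arrays, a grouping noticed in the data. Of the 9 probe sets above background on all arrays, 7 were highest of all 10 arrays on LOU array 1, where 9.67% of 10001 such probe sets were. All 9 exceeded the median of the other 4 LOU arrays, by a median of 0.92 on the log2 scale, while the median over the 10001 probe sets was −0.05. Lyz2 was 3.13 times the median of the other LOU arrays, Cd68 2.30 times, Csf1r and Laptm5 both 1.89 times and Tyrobp 1.76 times. Cd14 at 1.37 times, Cybb at 1.29 times and the brighter Aif1 probe set at 1.02 times were the least raised. No other array departed from its own strain this far, the medians for the other 9 arrays running from −0.20 on LOU array 5 to 0.20 on BN array 4.

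**Figure D3:**
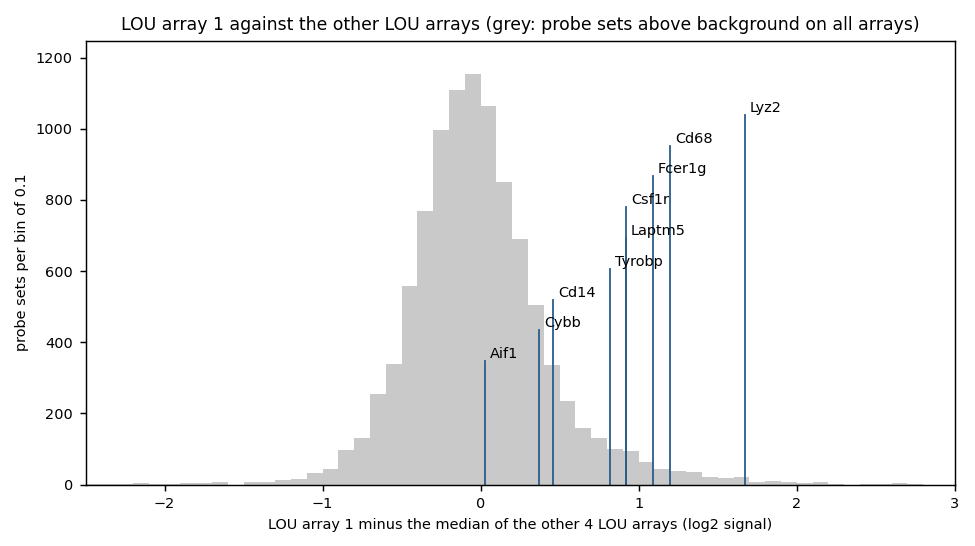
Log2 signal of LOU array 1 minus the median of the other 4 LOU arrays (x axis), as a histogram of 10001 probe sets above background on all arrays (grey, number per bin of 0.1) with the 9 macrophage and monocyte probe sets as lines. The histogram centres near 0, and lines run from 0.03 for Aif1 to 1.67 for Lyz2.

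The spread within strains followed the same array. On the log2 scale the SD was larger among LOU arrays than among BN arrays in 8 of the 10 probe sets, against 42.4% of all probe sets with all arrays. Without LOU array 1 it was larger in 4 of 10, for which no share over all probe sets was taken. For Fcer1g it was 0.16 in BN and 0.49 in LOU, and 0.05 in LOU without array 1. For Cd68 it was 0.18 in BN and 0.54 in LOU, and 0.07 without array 1. Pairwise correlations between the 9 genes, after each strain's mean was taken away, had a median Pearson r of 0.60 over the 36 pairs and 10 arrays, and 0.09 without LOU array 1. The median r over all pairs of 7368 genes was 0.01 both ways, and the points share their arrays and scaling.

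Further genes of the same cells and pathways, in 6 lists, gave no call either. Of 73 listed genes 47 were measured, with 52 probe sets, of which 0 were higher and 0 lower by limma's test, where 0.246% and 0.542% of all probe sets were. At an unadjusted p of 0.05 the count was 2 of 52, against 13.3% of all probe sets. Of the 29 that were above background on all arrays, 17 were highest on LOU array 1, where 9.67% of all 10001 such probe sets were. Summed T and NK cell, B cell and adipocyte markers were also highest there, as given below, and their part in this count was not tested. By list, the count highest on LOU array 1 was 1 of 4 for lipopolysaccharide recognition, 1 of 3 for growth and transcription factors and 1 of 2 for the phagocyte oxidase. It was 3 of 5 for ITAM receptors and kinases, 3 of 4 for scavenger and uptake receptors and 8 of 11 for other macrophage markers. These counts are too small to compare the lists. Lipopolysaccharide recognition had a median departure of −0.26 (log2) from the other LOU arrays, against 0.43 to 1.02 in the other lists. The 2 genes of each list with the smallest p are named in what follows, and each of them kept its sign and did not pass without LOU array 1, where the smallest adjusted p among them was 0.213.

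Among growth factor and transcription factor genes of the lineage, Csf1, the ligand of the Csf1r receptor, read 145.4, 147.8, 147.2, 186.2 and 310.8 on BN arrays 1 to 5, against 204.9, 157.3, 186.3, 49.2 and 67.0 on LOU arrays 1 to 5. LOU arrays 4 and 5 were far below the rest and BN array 5 far above, so the log2 difference of 0.64 did not pass (limma adjusted p = 0.563), nor did the 0.85 without LOU array 1 (adjusted p = 0.405). Runx1, a transcription factor of blood cell formation, differed by −0.15 (adjusted p = 0.765), and by −0.28 without that array. The median over the 5 probe sets of this list was 0.15. In the phagocyte oxidase, Rac2, its GTPase in blood cells, had 292.6 on LOU array 1, against 37.3 to 98.4 on the BN arrays and 55.3 to 92.1 on the other LOU arrays. Its difference of −0.56 with all arrays became −0.14 without that array (limma adjusted p = 0.642 and 0.862). Cyba, the membrane partner of Cybb, differed by −0.19 (adjusted p = 0.648), and the 4 probe sets of this list had a median of −0.24.

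Among ITAM receptors and kinases, Plcg2, a phospholipase that acts below the adaptors, differed by −1.16 (limma adjusted p = 0.393) with 1 BN and 3 LOU arrays above background, and the Fc receptor gene Fcgr3a by 0.17 (adjusted p = 0.695). The median over 7 probe sets was 0.08. Of the scavenger and uptake receptors, Stab1, which clears modified lipoproteins, averaged 128 ± 26.1 in BN and 193 ± 72.2 in LOU (SD, n = 5), a difference of −0.54 (adjusted p = 0.428), and −0.47 without LOU array 1. Cd200r1, an inhibitory receptor of myeloid cells, differed by −0.47 (adjusted p = 0.566), and all 5 probe sets of the list were negative, with a median of −0.20.

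In lipopolysaccharide recognition, Lbp, the serum protein that loads lipopolysaccharide onto CD14, had the smallest p of all 6 lists. Its signals were 289.8, 272.5, 300.7, 339.0 and 307.3 in BN, against 195.5, 277.6, 195.4, 122.8 and 198.2 in LOU. BN exceeded LOU on all arrays except for LOU array 2, which lay above the lowest BN array, and the log2 difference of 0.65 ± 0.19 (SE) did not pass the adjustment (limma adjusted p = 0.18, unadjusted p = 0.00723). Myd88, the adaptor of Toll-like receptors, differed by −0.20 (adjusted p = 0.549), and the list's 6 probe sets had a median of 0.12. Of 25 probe sets for other macrophage markers, Alox5ap, which activates leukotriene synthesis, differed by 0.89 (adjusted p = 0.34) with 3 BN arrays and 1 LOU array above background. The chemokine receptor gene Ccr2, which marks inflammatory monocytes, was above background on no array. The median of that list was −0.14.

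Summed markers of several other cell types were also highest on LOU array 1. The summed signal of 13 T and NK cell genes of 14 listed ran from 512 to 587 in BN and from 463 to 1159 in LOU, with LOU array 1 highest and 617 the next highest LOU value. Of the 14 T and NK cell probe sets 9 were highest on that array, against 10.6% of all probe sets. Cd247 was highest on BN array 2, Cd8a on LOU array 4, Cd8b on BN array 5 and Gzmb on BN array 4. Only 2 of the 14 were above background on all arrays. For 3 measured B cell genes of 9 listed, Cd79b, Cd37 and Cd74, the sums were 345 to 763 in BN and 224 to 1666 in LOU, where array 1 was again highest. Cd74, which macrophages and dendritic cells also express, made up most of that sum. The 7 adipocyte genes measured of 10 listed gave 2362 to 11143 in BN and 3725 to 14592 in LOU, the last on array 1 and the next highest LOU sum 9695, and Lep among them was above background on no array. Adipocyte genes varied on many arrays. Their median departure from the own strain was 0.86 on BN array 1, 0.89 on BN array 2, −1.58 on BN array 5, 1.31 on LOU array 1 and 0.83 on LOU array 2 (log2), and Pparg and Lipe were highest on BN array 2. The 6 smooth muscle genes gave 35985 to 52025 in BN and 32588 to 46222 in LOU, and their lowest sum of all was on LOU array 1. The part of these cells in the macrophage and monocyte signals was not tested.

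Neutrophil and mast cell marker sums did not peak on that array. Of 7 neutrophil genes measured of 12 listed, S100a8, S100a9 and Np4 were above background on no array, and the sums were 149 to 222 in BN and 126 to 188 in LOU, with 180.3 on LOU array 1. The 10 mast cell genes gave 776 to 1080.2 in BN and 1034 to 1396 in LOU, with 1132 on LOU array 1, and Tpsab1 was above background on no array. Srgn alone gave 662.3 of that 1132, and Lcn2 gave 90.3 of the neutrophil sum of 180.3. Only 1 of the 7 neutrophil and 2 of the 11 mast cell probe sets were above background on all arrays. Highest on LOU array 1 were 1 of the 7 and 2 of the 11, Cpa3 among the latter, against 10.6% of all probe sets. These sums therefore say little about either cell type on that array. For the 2 dendritic cell genes measured of 7 listed, sums ran from 99.0 to 159.9 in BN and from 99.0 to 207 in LOU, with array 1 the highest. Cd83 gave 170.1 of that 207 and was above background on all arrays. Clec9a was above it on only 1 BN and 1 LOU array and was highest on BN array 4. The 8 nerve and Schwann cell genes of 10 listed ran from 2806 to 5360.4 in BN and from 2391 to 3090.4 in LOU, with 2818 on LOU array 1, and the 4 endothelial genes of 6 listed from 682 to 1305 in BN and from 853 to 1723 in LOU, with 942 on LOU array 1.

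**Figure D4:**
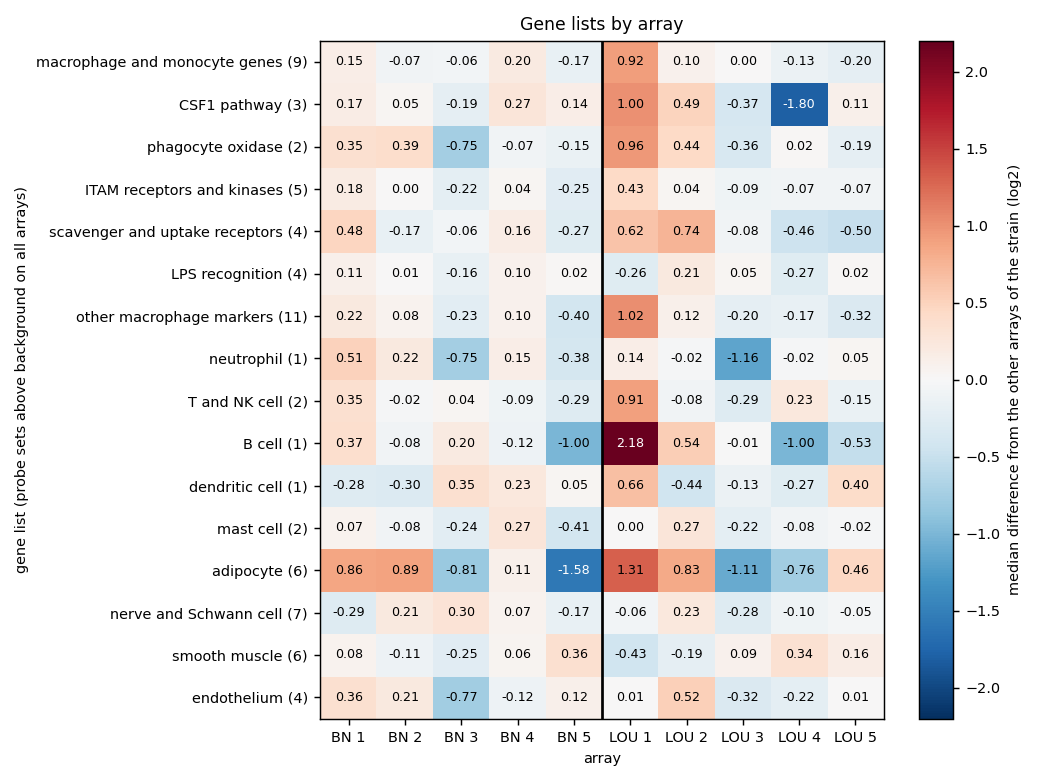
Median log2 difference of each array (columns, BN then LOU) from the median of the other arrays of its strain, for the macrophage and monocyte genes and each further list (rows, with the number of probe sets above background on all arrays in brackets). LOU array 1 is at 0.92 for the macrophage and monocyte genes and 1.02 for other macrophage markers, against −0.43 for smooth muscle.

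The genes whose pattern over the arrays was most like the mean of the 9 genes were Grifin, C1qa, Enpp2, Pyurf and Arhgdib, out of 7359 compared. Likeness was Pearson's r over the 10 arrays after each strain's mean was taken away, 0.97, 0.96, 0.93, 0.92 and 0.91 in that order, and it is a description with no test. All 5 were highest on LOU array 1, and over the 9 other arrays r was 0.84, 0.79, 0.70, 0.57 and 0.56. C1qa, a chain of complement C1q that tissue macrophages make, read 359.6 on LOU array 1 and 127.0 to 196.4 on the others. Enpp2 encodes autotaxin, the secreted enzyme that makes lysophosphatidic acid. Grifin, a galectin-related gene first described in the lens, read 408.9 on LOU array 1 and 46.6 to 166.0 on the others. Arhgdib read 580.6 on LOU array 1 and 246.0 to 358.6 elsewhere.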

How the data were processed

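The deposited intensity values were linear signals, 1 per probe set and array, and no column was left unmapped. The submitters' processing notes name RMA, while the values were not on a log scale and every array had a 2% trimmed mean of 200.05 to 200.06, so the authors' scaling is known only from the values. Since the test was planned for log2 values, signals were converted to log2, with 4 values of 0 set to 0.1. BN minus LOU was fitted by limma 3.58.1 under R 4.3.3 (lmFit, eBayes, strain only, two-sided, all 10 arrays) over 15866 probe sets, with 57 controls left out. Array annotation gave 12783 probe sets 1 symbol, 312 several and 2771 none, and symbols were updated by gene identifier to GRCr8 names. An array's background was the 95th percentile over its 45 probe sets for bacterial transcripts (signals of 21.2 to 49.2). The number of arrays limits the precision. Tested on simulated arrays, the fit recovered 6% of log2 changes of 0.5, 45.7% of 1 and 80.7% of 2. The changes sat on randomly drawn probe sets, dim ones included, with independent normal noise of equal SD in both strains. Most macrophage and monocyte probe sets shared a high LOU array 1, so these rates need not hold for them. No macrophage or monocyte difference with all arrays exceeded 0.47 in size. The planned search of protein sequences was not run.

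The genes and lists were chosen with earlier results of these data known. Named outside the 10 genes are those of each related list past the test, or otherwise its 2 with the smallest p, and the 5 most alike. Alternatives were 2 scalings, 2 treatments of low signals, leaving out dim probe sets or each array in turn, weighting arrays, letting the prior variance follow the signal, a block by replicate number, and averaging both Aif1 probe sets.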

Additional observations from a re-analysis of the deposited data

Results flagged for a closer look

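In 44 sets of 5 arrays, 7 held a linear signal set apart from the other 4 by Dixon's test (gap over range above 0.71). Chance gives this in about 5% of independent groups of normally distributed values. The sets here share the same arrays, and the fits used log2 signals. The flags therefore apply to linear signals only, and 7 of 44 cannot be set against that 5%. Of the 7, 5 were on LOU array 1, each the highest of its strain: Lyz2 at 1371.1, Cd68 at 200.3, Csf1r at 260.1, Fcer1g at 510.8 and Rac2 at 292.6. Csf1 was highest on BN array 5 at 310.8, and Alox5ap was lowest on LOU array 4 at 7.2, below background.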

How the results depend on the processing

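No macrophage or monocyte probe set passed limma's test under any of the alternatives run, and the smallest adjusted p was 0.278, for Csf1r without dim probe sets. Of 199 alternative values of the differences, 182 kept their direction and 17 turned. With 1 array left out, Lyz2 ran from −0.47 to 0.06, Fcer1g from −0.17 to 0.12, Cybb from −0.12 to 0.06 and the dim Aif1 probe set from −0.37 to 0.59. The sign also turned for Cybb with median centring (0.04), quantile normalization (0.03) and array weights (0.09), for Fcer1g with array weights (0.02), for the dim Aif1 probe set with signals below 32 set to 32 (−0.14) and for the brighter one in the mean of both (0.01). Without BN array 3 and LOU array 1, chosen after seeing the data, Lyz2 gave 0.02, Fcer1g 0.13 and Cybb 0.08. Over all probe sets 39 were higher and 86 lower in BN. These were 78 and 175 when dim probe sets were dropped, 81 and 161 when the prior variance followed the signal, 60 and 144 with a pseudocount of 16, 60 higher with the floor of 32, and 16 higher without those 2 arrays. With 1 array left out they ran from 17 to 36 and from 45 to 91. Leaving out BN array 2 or 4 or LOU array 2, 3, 4 or 5 lowered the higher ones to 17 to 21, and leaving out BN array 2 or LOU array 2, 3, 4 or 5 brought the lower ones to 45 to 57. With the replicate number as a block they were 10 and 13, but the numbers do not pair the arrays (r of −0.05 to 0.01 between same-numbered arrays, and 0 of 5 correlating best with their own number). The cause of these changes was not tested. Signal over background limits the dim Aif1 probe set.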

Other observations

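Of the 25 probe sets for other macrophage markers, 14 were highest on LOU array 1, against 10.6% of all probe sets. Only 11 of the 25 were above background on all arrays, and 8 of these 11 were highest there, against 9.67% of all such probe sets. Those named here were chosen after their values were seen. Ptprc, the CD45 phosphatase carried by nearly all leukocytes, read 162.9 there, against 18.1 to 23.3 on the BN arrays and 18.9 to 34.5 on the other LOU arrays, but it was above background on 0 BN and 2 LOU arrays, so most of the lower readings are background. The complement genes C1qb and C1qc read 290.6 and 296.9 on that array. On the BN arrays C1qb ran from 65.7 to 135.7 and C1qc from 111.4 to 148.6, and on the other LOU arrays from 73.7 to 120.6 and from 107.9 to 176.3. Other genes of the list were lower on LOU array 1 than the median of the other LOU arrays, C5ar1 at 0.669 times, Cd86 at 0.799 times, Cx3cr1 at 0.866 times and Ccr2, above background on no array, at 0.588 times.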
